A study of Mus musculus with 24 samples.

Results

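The 116 genes described here fell in both of the PRC1 mutant lines studied, and they were chosen by that fall. For each gene the mean of log2(normalised read count + 1) over the OHT-treated libraries was lower than that of the untreated libraries by a log2 change of -0.8 or beyond in PRC1CKO and in PRC1CPM cells, and both untreated means were at least 50. A normalised read count is the number of reads over the whole gene body, exons and introns, divided by a size factor set by the spike-in. The rule took 1 protein-coding (NM_) transcript per gene name and left out 3 names, the Y chromosome and names with 5 particular starts. Of 19409 gene names in the table, 17180 could enter, 11960 of these had both untreated means at or above 50, and 116 met the bound in both lines. All 116 also passed the filter used for the fits, at least 10 reads in at least 3 libraries. Since the rule used them, the changes after OHT are given as descriptions, with no test, while the differences between the lines, which the rule did not use, were tested.

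The data are calibrated RNA-seq (cRNA-seq) of total RNA depleted of ribosomal RNA from mouse embryonic stem cells (ESCs), the pluripotent cells of the early embryo, of the E14 strain grown in serum with leukemia inhibitory factor. PRC1CKO cells carry Ring1a-/-, Ring1b fl/fl and Rosa26::ERT2-Cre, so that their untreated controls already lack RING1A, and 4-hydroxytamoxifen (OHT) removes RING1B as well. PRC1CPM cells carry RING1A with the changes I50A and D53K, a Ring1b allele that OHT switches from wild type to I53A and D56K on both copies, and the same Cre, so that RING1A is already catalytically inactive in their untreated controls and the RING1 proteins lose their activity but stay present after OHT. Each line is 1 clone, each was sampled in 3 biological replicates without OHT and 3 with 800 nM OHT for 72 h, and no OHT-treated line without a conditional Ring1b allele was analysed here, so an effect of OHT or Cre itself cannot be told apart from that of the alleles. The 12 libraries held 14668159 to 27016156 reads on transcripts. Positions of genes are those of the deposited table, on mm10.

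Polycomb repressive complex 1 (PRC1) places a single ubiquitin on lysine 119 of histone H2A and helps to keep developmental genes silent in ESCs, and RING1A and RING1B are its catalytic subunits. Canonical PRC1 holds CBX, PHC and PCGF subunits beside RING1A or RING1B, and the complex is recruited mainly to CpG-rich promoters. Its loss is known for raising genes that it represses, and the genes described here moved the other way.

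Rnf2, which encodes RING1B, had normalised read counts of 1756, 1436 and 1385 in the untreated and 1489, 1565 and 1585 in the OHT-treated PRC1CKO libraries, and 1850.1, 1659 and 1578 untreated and 1724, 1295 and 1513 after OHT in PRC1CPM. Ring1, which encodes RING1A, had 313, 204 and 166 untreated and 281, 251 and 229 after OHT in PRC1CKO, and 179, 182 and 125 untreated and 161, 111 and 148 after OHT in PRC1CPM. Neither was called changed by OHT in either line. A count over the whole gene body does not separate the deleted or exchanged exons from the rest, so these values do not check the labels.

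The libraries of a condition differed in scale. The median of all tested transcripts in the first untreated PRC1CKO library lay 0.36 above its condition's mean on the log2 scale, and those of the second and the third lay at -0.20 and -0.16. In OHT-treated PRC1CPM cells the first library lay at 0.29 and the second at -0.30. The median of the members followed, at 0.31, -0.29 and -0.03 in the 3 untreated PRC1CKO libraries and at 0.32 and -0.28 in the first and second OHT-treated PRC1CPM libraries. The spread between replicates of a member is thus in part a common shift of its whole library. Leaving out 1 library at a time, the rule took 81 to 162 genes, with the fewest, 81, without the second OHT-treated PRC1CPM library and the most, 162, without the second untreated PRC1CPM library.

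Across the 116 genes the median log2 change was -1.24 in PRC1CKO and -1.10 in PRC1CPM cells, beside medians of 0.12 and 0.10 over all tested transcripts. The changes reached -3.02 in PRC1CKO, for Napsa, and -2.01 in PRC1CPM, for Slc28a1. A log2 change of -1 or lower was seen for 91 members in PRC1CKO, 78 in PRC1CPM and 68 in both. Every same-numbered pair of libraries showed a fall for all 116 members in both lines. Every OHT-treated library lay below every untreated one for 108 members in PRC1CKO, 87 in PRC1CPM and 86 in both lines, against 2.60% of the 11960 genes with both untreated means at or above 50 that did so in both lines, a share printed for scale since the rule used the same contrast. The counts for each line alone and for the same-numbered pairs have no such share beside them, and nothing is read from them. The limma fit called 108 members lower in PRC1CKO and 98 in PRC1CPM, where it called 3.09% and 1.40% of all tested transcripts lower, and with the replicate number as a block 116 in each line, beside 4.86% and 2.72%, and nothing is read from these counts for the same reason. The fall was larger in PRC1CKO for 84 members and larger in PRC1CPM for 32, with a median difference of 0.13 beside a median standard error of 0.42 for the difference of a single gene, and these differences were not tested since the rule used both changes.

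**Figure D1:**
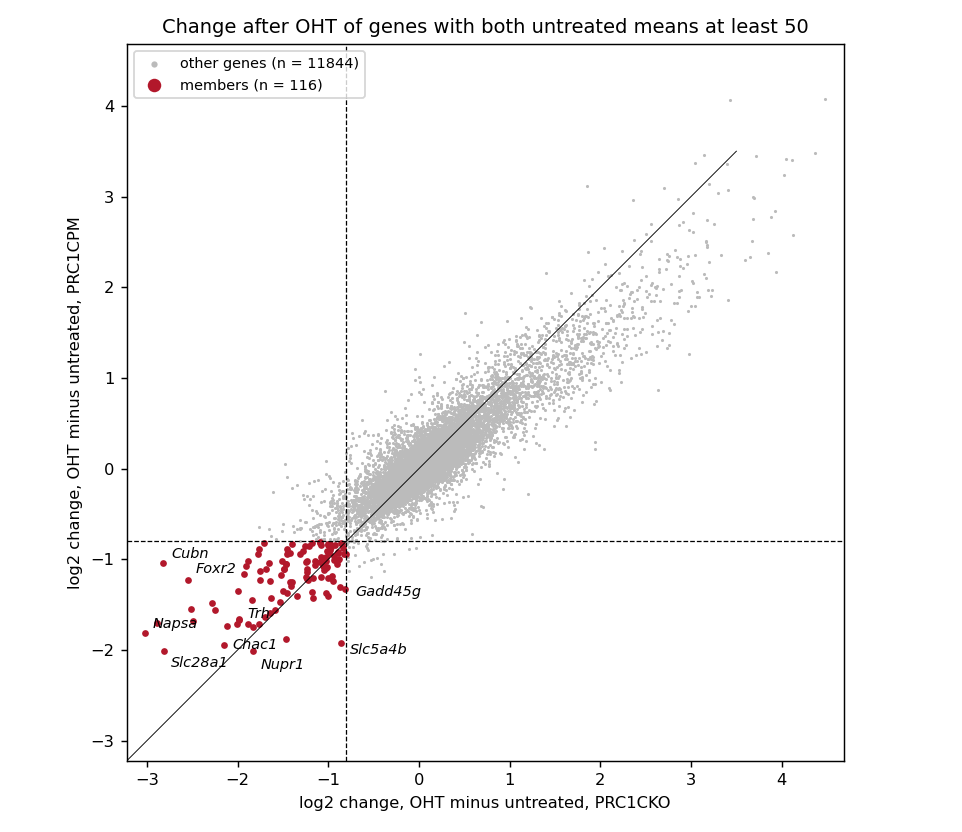
Log2 change after OHT in PRC1CKO (x axis) and PRC1CPM (y axis) cells for the 11960 genes with both untreated means at least 50, 1 point per gene, with the 116 members in red. The dashed lines mark the bound of -0.8 and the solid line equal changes, and 84 of the 116 members lie above the solid line, where the fall was larger in PRC1CKO.

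The members are described below by what they are known for, in groups that were sorted after the values had been seen. The share left of a member, given as a percent, is taken from the means on the log2 scale. The groups hold 12 genes of the amino acid and stress response, 5 of cytokine signalling, 6 other signalling and surface genes, 14 regulators of gene activity, 14 enzymes, 10 transport genes, 5 muscle genes, 10 genes of neurons and vesicle release, 8 germ line genes, 3 cilium genes, 6 genes of immune cells or secreted inhibitors and 23 others.

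**Figure D2:**
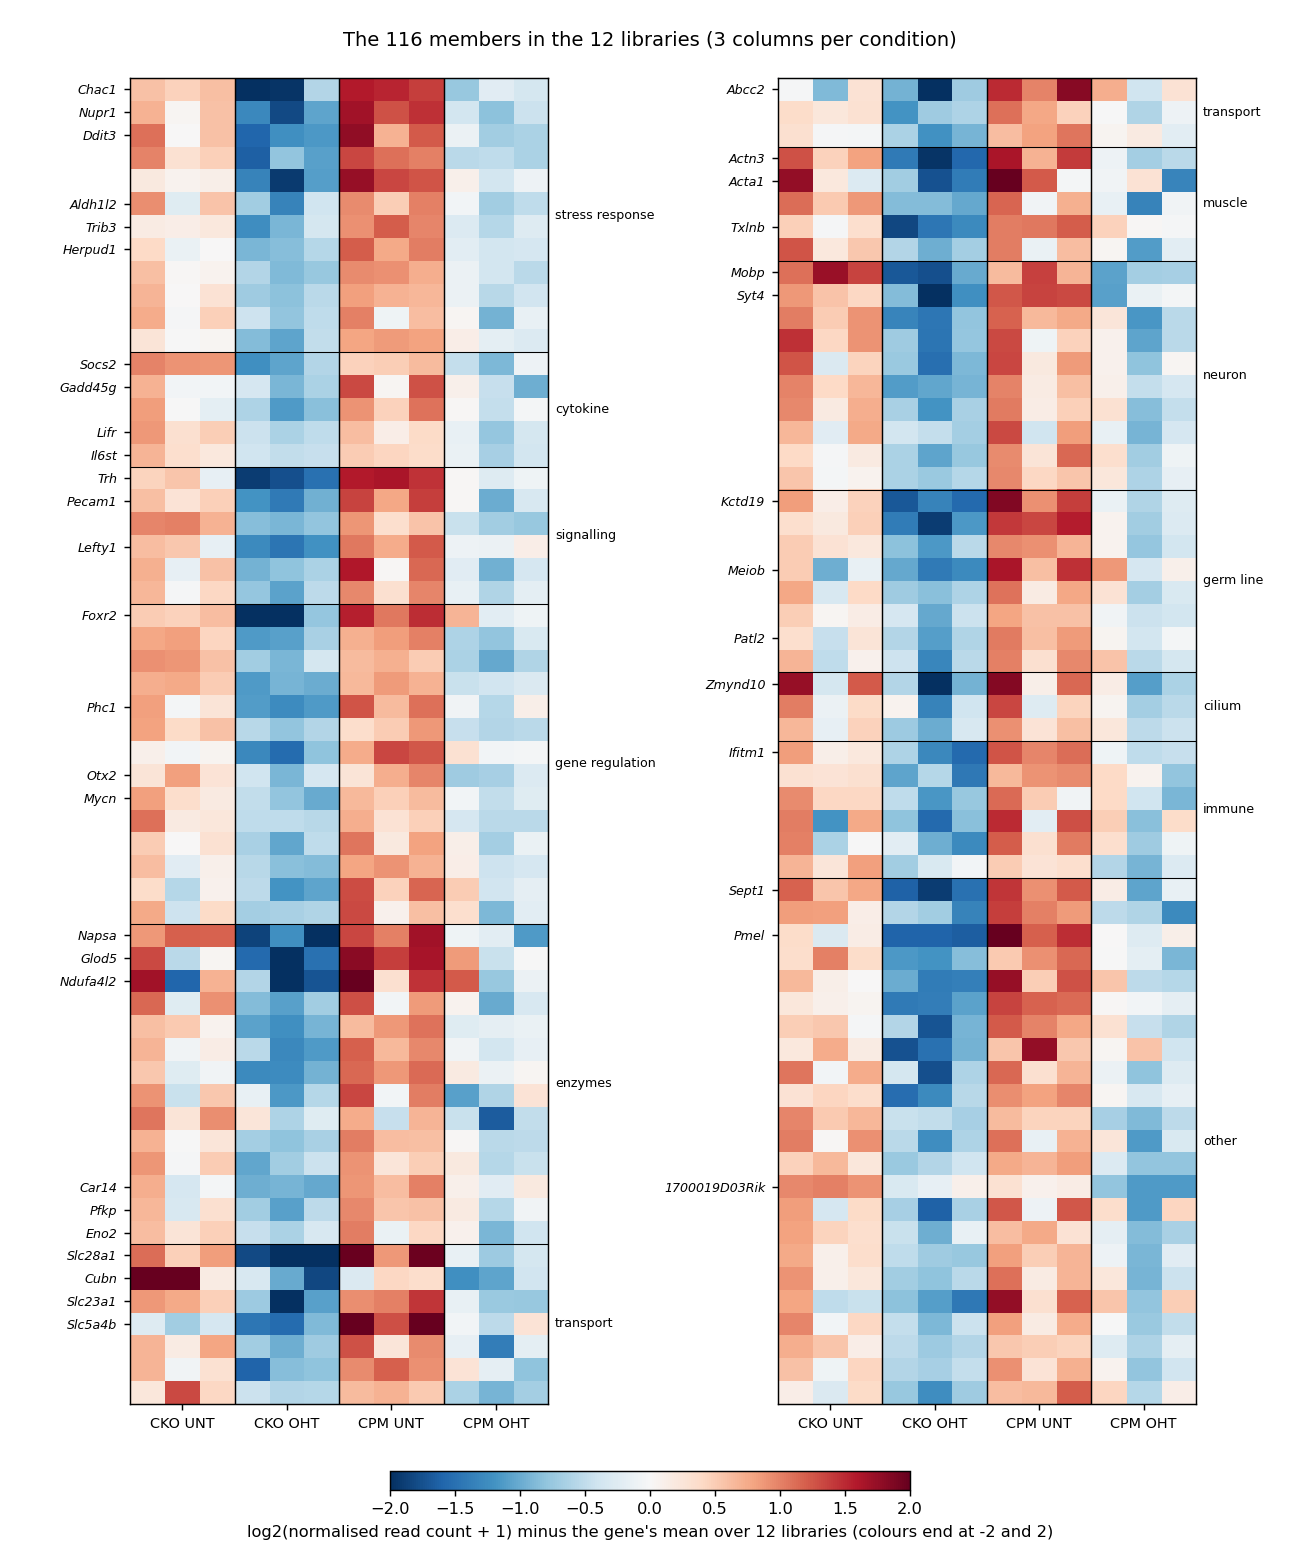
All 116 members (rows, by group and then by mean change, with the members of the naming rule labelled) in the 12 libraries (columns, 3 per condition: CKO and CPM untreated, UNT, and after OHT). The colour gives log2(normalised read count + 1) minus the gene's mean over the 12 libraries and ends at -2 and 2, and the untreated columns of both lines are mostly red and the OHT columns mostly blue, with the darkest blue in PRC1CKO after OHT.

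The 12 amino acid and stress response genes had median log2 changes of -1.12 in PRC1CKO and -1.35 in PRC1CPM, and 7 of them fell more in PRC1CPM. This response, also called the integrated stress response, is known to act through the transcription factor ATF4, which rises when amino acids are short or unfolded proteins collect in the endoplasmic reticulum and then switches on genes for amino acid uptake, serine synthesis and tRNA charging.

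Chac1 (chr2:119351242-119354327) encodes an enzyme that breaks down glutathione and is a classic target of ATF4. Its normalised read counts were 447, 410.2 and 454 in untreated and 61.5, 75.9 and 198 in OHT-treated PRC1CKO cells. In PRC1CPM cells they were 900.1, 856 and 778 untreated and 176, 254 and 233 after OHT. The conditions did not overlap in either line, and 22.5% and 26% of the untreated level was left in PRC1CKO and PRC1CPM, log2 changes of -2.15 and -1.94. The third OHT-treated PRC1CKO library was well above the other two of its condition.

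Nupr1 (chr7:126623246-126625470), a small nuclear protein induced by stress, had 179, 112 and 166 normalised reads in untreated and 44.3, 30.5 and 52.3 in OHT-treated PRC1CKO cells. It had 354, 267 and 302 in untreated and 84.9, 61.9 and 81.1 in OHT-treated PRC1CPM cells. Its fall was the second largest of all members in PRC1CPM, where 24.9% was left, and 28.2% was left in PRC1CKO. Ddit3 (chr10:127290793-127296288), which encodes CHOP, the transcription factor of the late stress response, had 779, 366 and 545 untreated and 119, 155 and 163 after OHT in PRC1CKO. In PRC1CPM it had 1243, 588 and 843 untreated and 333, 222 and 233 after OHT. Its levels before and after OHT stood apart in both lines, with log2 changes of -1.89 and -1.72.

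Trib3 (chr2:152337425-152344060), a pseudokinase that restrains ATF4 in a feedback loop, had 429, 419 and 439.7 in untreated and 161, 202 and 298 in OHT-treated PRC1CKO cells. In PRC1CPM the values were 721, 883 and 755 untreated and 317, 256 and 319.9 after OHT. Trib3 fell by 1.01 on the log2 scale in PRC1CKO and 1.40 in PRC1CPM. Aldh1l2 (chr10:83487447-83534140), a mitochondrial enzyme of folate metabolism, had 352, 155 and 272 untreated and 113, 72.2 and 139.6 after OHT in PRC1CKO, and 353, 258 and 369 untreated and 178, 113 and 129 after OHT in PRC1CPM, and its log2 changes were -1.23 and -1.23. Herpud1 (chr8:94386500-94395358), which takes part in clearing misfolded proteins from the endoplasmic reticulum, had 779, 543 and 599.5 untreated and 315, 328 and 398 after OHT in PRC1CKO, and 1368, 1002 and 1213 untreated and 511, 458 and 469 after OHT in PRC1CPM. With log2 changes of -0.87 and -1.31 it was, after Slc5a4b and Gadd45g, the member whose fall was larger in PRC1CPM by the widest margin.

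The other 6 genes of the group, like other members outside the naming rule, are named for their roles after their values were seen. Gdf15, a secreted stress hormone, had log2 changes of -1.76 and -1.71 in PRC1CKO and PRC1CPM, and Adm2, a peptide hormone of the endoplasmic reticulum stress response, -1.59 and -1.56. Pck2, the mitochondrial form of phosphoenolpyruvate carboxykinase, gave -0.97 and -1.20, and Sars, the seryl-tRNA synthetase, -1.02 and -1.08. Slc1a4, a carrier of neutral amino acids, gave -0.90 and -0.93, and Crebrf, a regulator linked to the unfolded protein response, -0.97 and -0.86. The OHT and untreated libraries stood apart for all 12 genes in PRC1CKO and for 11 in PRC1CPM, the exception being Crebrf. Among all 116 members, chosen by this same contrast, they did so for 108 and 87, so nothing is read from these counts. Within untreated PRC1CKO cells the first library was the highest for 10 of the 12 genes, as it was in overall scale. The first library was also the highest for 9 of them in untreated and for 9 in OHT-treated PRC1CPM cells. In OHT-treated PRC1CKO cells the third library was the highest for 9. The median of all tested transcripts lay at -0.01 in that library and at 0.10 in the first of its condition.

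**Figure D3:**
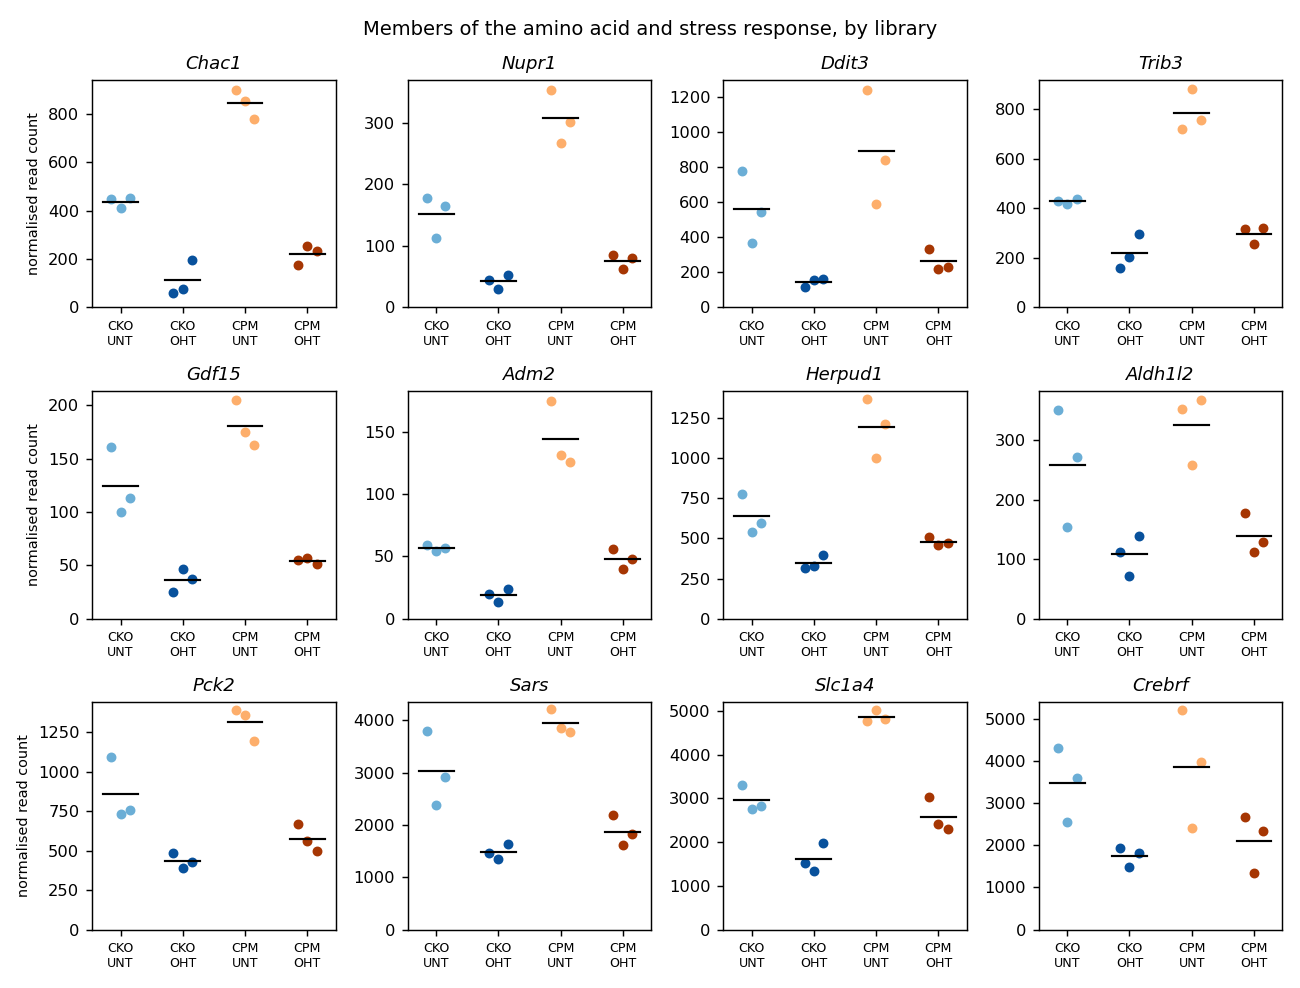
Normalised read counts (y axis, from 0) of the 12 amino acid and stress response members, 1 panel per gene, in untreated (UNT) and OHT-treated (OHT) PRC1CKO (CKO) and PRC1CPM (CPM) cells. Points are the 3 libraries of a condition and bars their mean, and the untreated PRC1CPM mean is the highest of the 4 in each panel.

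ATF4 with a C/EBP partner is known to bind a composite element near the start of its target genes. The letters TGATGNAA were searched on both strands in the window from 250 bases before to 50 bases after the start, for the 8302 of 11960 genes, and 74 of 116 members, with a RefSeq promoter (GRCm38.p6) within 50 bases of the deposited start. They were found in 10 of the 74 members (13.5%) and in 1.85% of the 8302 windows. Of the 8 stress response members with a window, 5 held them: Chac1, Nupr1, Pck2, Slc1a4 and Trib3, the last 14 bases after the start. The stretches before the start are shown 5′ to 3′ on the strand of the gene for the members in which the whole match lies upstream, with the matched letters in capitals:
Chac1 (chr2:119351019-119351086, plus strand): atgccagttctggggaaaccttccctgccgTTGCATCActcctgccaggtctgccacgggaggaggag
Nupr1 (chr7:126625543-126625610, minus strand): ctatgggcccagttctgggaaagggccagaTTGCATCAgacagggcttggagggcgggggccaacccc
Pck2 (chr14:55540133-55540200, plus strand): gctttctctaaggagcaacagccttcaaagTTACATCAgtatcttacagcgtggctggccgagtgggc
Gadd45g (chr13:51846542-51846611, plus strand): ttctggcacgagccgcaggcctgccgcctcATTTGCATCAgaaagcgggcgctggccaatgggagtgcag
Rab3il1 (chr19:10018033-10018100, plus strand): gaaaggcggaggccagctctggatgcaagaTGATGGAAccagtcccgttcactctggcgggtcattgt
Scn9a (chr2:66634970-66635037, minus strand): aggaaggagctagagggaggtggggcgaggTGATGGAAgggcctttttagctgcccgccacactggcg
In Chac1 and Nupr1 the match is on the opposite strand and reads TTGCATCA, and it begins 193 and 110 bases before the start. In Pck2 it reads TTACATCA, 103 bases before it. In Gadd45g the 10 capitals hold the composite letters and, overlapping them, the octamer ATTTGCAT, the element known for POU factors such as OCT4. The octamer was found in 4 of 74 member windows (5.41%) and in 1.32% of all, with the other 3 in Pim2, Dll1 and Mef2b. In Pim2 it occurs at 2 places, once on each strand:
Pim2 (chrX:7878074-7878220, plus strand): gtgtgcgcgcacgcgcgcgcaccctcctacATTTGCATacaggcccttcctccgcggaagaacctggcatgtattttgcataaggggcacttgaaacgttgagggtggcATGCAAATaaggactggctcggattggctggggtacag
The STAT letters TTCCNGGAA were found in 3 of 74 member windows (4.05%) and 1.22% of all, and the E-box CACGTG in 7 (9.46%) and 10.6%. A match describes letters in a window and was not tested as a site.

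The set also holds genes of the LIF receptor pathway. Leukemia inhibitory factor keeps mouse ESCs from differentiating by binding LIFR and its partner gp130, the product of Il6st, which activate JAK kinases and the transcription factor STAT3, and SOCS proteins, themselves induced by STATs, shut the signal off. Lifr (chr15:7140542-7197489) had 9369, 6413 and 7213 normalised reads in untreated and 3794, 3314 and 3598 in OHT-treated PRC1CKO cells. In PRC1CPM cells it had 7866, 5631 and 6688 untreated and 4597, 2983 and 4016 after OHT. The conditions did not overlap in either line, 47.1% and 57.1% was left, and the change in PRC1CPM, -0.81, was the nearest to the bound of any member.

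Il6st (chr13:112464070-112506860) had 6398, 5070.0 and 4619 untreated and 3033, 2852 and 2901 after OHT in PRC1CKO. In PRC1CPM it had 5691, 5423 and 5149.7 untreated and 3654, 2537 and 3115 after OHT. Its log2 changes, -0.86 and -0.82, were close to each other, and no libraries of the 2 treatments overlapped. Socs2 (chr10:95411490-95415484), an inhibitor of cytokine signals, had 1079.9, 1011 and 999 in untreated and 231, 261 and 360.3 in OHT-treated PRC1CKO cells, with 751, 761 and 838 untreated and 389, 291 and 504 after OHT in PRC1CPM. Its untreated libraries were tight in both lines, and 27.2% was left in PRC1CKO against 49.3% in PRC1CPM.

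Gadd45g (chr13:51846675-51848474), a growth arrest and DNA damage gene that cytokines also induce, had 232, 139 and 138 untreated and 114, 75.9 and 92.5 after OHT in PRC1CKO. It had 362, 147 and 347 untreated and 154, 104 and 72.3 after OHT in PRC1CPM. The second untreated PRC1CPM library lay below the first OHT-treated one, so the conditions overlapped in PRC1CPM. Its log2 changes were -0.82 and -1.32. Pim2, a kinase gene that STATs induce, had log2 changes of -1.08 and -0.97.

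**Figure D4:**
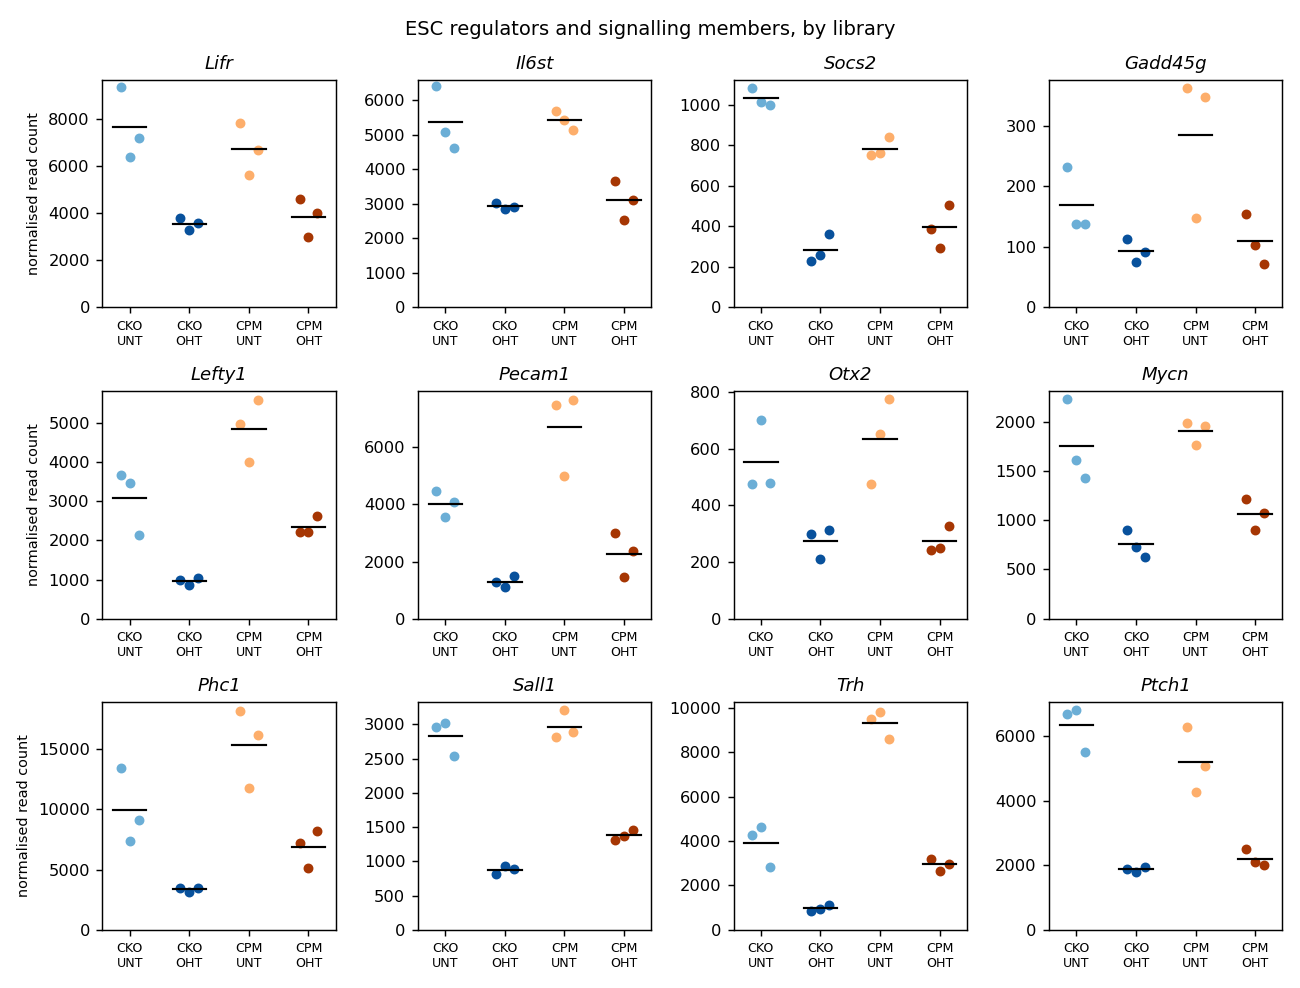
Normalised read counts (y axis, from 0) of 12 members known as receptors, signals or regulators in ESCs, 1 panel per gene, laid out as for the stress response genes. Points are the 3 libraries of each condition and bars their mean, and Sall1, Ptch1, Trh and Lefty1 show OHT-treated libraries far below the untreated ones in both lines.

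Among the signals and surface proteins, Trh (chr6:92242061-92244650), the precursor of thyrotropin-releasing hormone and a known ESC transcript, had the highest untreated level per length of all members, 2550.2 normalised reads per kb of gene body. Its counts were 4290.0, 4637 and 2811 in untreated and 845, 936 and 1128 in OHT-treated PRC1CKO cells. In PRC1CPM they were 9483, 9816 and 8593 untreated and 3202, 2645 and 2974 after OHT. The OHT-treated PRC1CPM libraries thus reached into the range of the untreated PRC1CKO libraries, and lay above all 3 OHT-treated PRC1CKO libraries.

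Lefty1 (chr1:180935039-180938401), a secreted inhibitor of Nodal signalling, was the second most abundant per length at 1183 per kb. It had 3679, 3471 and 2143 untreated and 983, 866 and 1028 after OHT in PRC1CKO, and 4987, 4004 and 5594 untreated and 2229, 2213 and 2623 after OHT in PRC1CPM. In PRC1CKO 31.8% was left and in PRC1CPM 48.8%. Pecam1 (chr11:106654213-106715281), a surface adhesion protein used as a marker of undifferentiated ESCs, had 4463, 3545 and 4069 untreated and 1285, 1095 and 1505 after OHT in PRC1CKO, and 7471, 4993 and 7649 untreated and 2987, 1471 and 2355 after OHT in PRC1CPM, with 32.1% and 33.1% left. Ptch1, the Hedgehog receptor, had log2 changes of -1.75 and -1.23, Dll1, a Notch ligand, -1.17 and -1.43, and Gdf1, a partner of Nodal, -1.14 and -1.06.

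The 14 regulators had medians of -1.22 in PRC1CKO and -1.07 in PRC1CPM. Phc1 (chr6:122317731-122339657) encodes a Polyhomeotic subunit of canonical PRC1 itself and was the third most abundant member per length, at 578 per kb. It had 13454, 7361 and 9113 in untreated and 3477, 3166 and 3457 in OHT-treated PRC1CKO cells, and 18162, 11746 and 16204 untreated and 7233, 5121 and 8190.2 after OHT in PRC1CPM. Of its untreated level 34.8% was left in PRC1CKO and 44.4% in PRC1CPM. Otx2 (chr14:48657677-48667644), a transcription factor of the step from naive to primed pluripotency, had 477, 703 and 478 untreated and 300.1, 209 and 313 after OHT in PRC1CKO, and 476, 654 and 777 untreated and 241, 251 and 326 after OHT in PRC1CPM, log2 changes of -1.01 and -1.20.

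Mycn (chr12:12936093-12941836), the MYC family member abundant in ESCs and the fifth most abundant member per length at 319 per kb, had 2236, 1614 and 1429.9 untreated and 899, 732 and 631 after OHT in PRC1CKO. In PRC1CPM it had 1991, 1764 and 1963 untreated and 1220.1, 897 and 1075 after OHT. No OHT-treated library reached an untreated one in either line, and 43.2% and 55.5% was left. Foxr2 (chrX:153118788-153132861), a forkhead factor, had 56.6, 54.6 and 60.9 untreated and 5.42, 5.55 and 22.7 after OHT in PRC1CKO, and 118, 82.9 and 111 untreated and 63.7, 34 and 37.2 after OHT in PRC1CPM. Its counts were low in every library, with 17.1% left in PRC1CKO and 42.7% in PRC1CPM.

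The remaining regulators had values in the same range. Zic5, a zinc finger factor of neural development, had log2 changes of -1.63 and -1.43, and Sall1, a zinc finger factor that ESCs share with the developing kidney, -1.69 and -1.11. Zeb1, which represses epithelial genes, had -1.45 and -1.37, and Prdm1, needed for primordial germ cells, -1.24 and -1.10. Trim66, Thap2, Klf15, Mef2b and Zfp383 also belong to the group.

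The largest mean falls were spread over several of the groups. Napsa (chr7:44572445-44586846), an aspartic endopeptidase of lysosomes, had 161, 202 and 199.6 in untreated and 23.5, 37 and 12.2 in OHT-treated PRC1CKO cells. In PRC1CPM it had 222, 177 and 283 untreated and 83, 75.8 and 39.4 after OHT. That left 12.3% in PRC1CKO and 28.5% in PRC1CPM and its fall differed between the lines by the widest margin after Cubn and Foxr2. Slc28a1 (chr7:81114799-81170416), a sodium-coupled nucleoside carrier, had 486, 312 and 397 untreated and 63.3, 49.98 and 52.3 after OHT in PRC1CKO, and 881, 409 and 869 untreated and 201, 134 and 175 after OHT in PRC1CPM, with 14.2% and 24.8% left.

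Mobp, a myelin protein gene, fell by 2.88 on the log2 scale in PRC1CKO and 1.70 in PRC1CPM. Its counts were 390.3, 600.3 and 464 untreated and 55.1, 52.8 and 89 after OHT in PRC1CKO, and 281, 466 and 289 untreated and 84.9, 112 and 114 after OHT in PRC1CPM. Sept1, a septin, had 1241, 801 and 938 untreated and 177, 145 and 194 after OHT in PRC1CKO, and 1482, 1026 and 1282 untreated and 606, 262 and 491 after OHT in PRC1CPM. In both genes the OHT-treated libraries were well clear of the untreated ones, and less was left in PRC1CKO than in PRC1CPM. Syt4, a synaptotagmin of vesicle release, had log2 changes of -2.12 and -1.73, and Kctd19, known from meiosis, had 25% and 30.6% of its untreated level left.

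Cubn (chr2:13276338-13491876), the receptor that takes up vitamin B12 bound to intrinsic factor, was uneven among the replicates. It had 1539, 1019.7 and 235 in untreated and 166, 104 and 58.4 in OHT-treated PRC1CKO cells. In PRC1CPM it had 171, 277 and 266 untreated and 88.8, 99.7 and 159.9 after OHT. The third untreated PRC1CKO library, at 235, lay far below the other two and in the range of the untreated PRC1CPM libraries. Zmynd10 (chr9:107547310-107551319), needed to assemble the dynein arms of cilia, was also uneven, with 95.3, 21.5 and 66 untreated and 18.1, 3.7 and 14 after OHT in PRC1CKO, and 101, 30.2 and 62.4 untreated and 30.9, 12.4 and 17.5 after OHT in PRC1CPM, where its conditions overlapped. Its lowest value rested on 4 reads.

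Of the 10 transport genes, 5 besides Slc28a1 encode solute carriers of the SLC families (Slc23a1, a vitamin C carrier, Slc5a4b, Slc46a3, Slc45a1 and Slc35f4), and their log2 changes as a group ran from -2.83 to -0.86 in PRC1CKO and from -2.01 to -0.83 in PRC1CPM, with Cubn, Abcc2, Pdzk1 and Trpm1 included. Slc5a4b stood apart from the rest by its pattern. It had 71.5, 52.3 and 67.6 in untreated and 30.7, 28.7 and 46.2 in OHT-treated PRC1CKO cells, and 357, 210.2 and 381 untreated and 82, 59.5 and 104 after OHT in PRC1CPM. With log2 changes of -0.86 and -1.92 it fell more in PRC1CPM, from a higher untreated level.

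Genes of striated muscle formed a further group. Actn3 (chr19:4861216-4877909), the alpha-actinin of fast muscle fibres, had 898, 512 and 651 untreated and 139, 95.3 and 125 after OHT in PRC1CKO, and 1155, 606 and 987 untreated and 346, 232 and 257 after OHT in PRC1CPM. Acta1, skeletal muscle actin, had 301, 103 and 73.6 untreated and 54.2, 25.9 and 33.1 after OHT in PRC1CKO, and 368, 209 and 86.8 untreated and 84, 108 and 35.1 after OHT in PRC1CPM, where its libraries overlapped. Its first untreated library was the highest and the third the lowest in each line. Txlnb, Trim63 and Ttn were the others, and all 5 fell more in PRC1CKO, with medians of -1.78 and -1.12.

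Among the enzymes, Pfkp (chr13:6579874-6648771), the platelet form of phosphofructokinase, had 16644, 8425 and 13048 untreated and 6503, 4916 and 7282 after OHT in PRC1CKO. In PRC1CPM it had 20386, 15417 and 15674 untreated and 11945, 7065 and 10026 after OHT. Eno2 (chr6:124760053-124769673), an enolase best known from neurons, had 932, 730.3 and 847 untreated and 440.2, 391 and 489 after OHT in PRC1CKO, and 1234, 558 and 808 untreated and 646, 324 and 463 after OHT in PRC1CPM. Of Pfkp 50.3% and 55.6% was left and of Eno2 52.7% and 55.9%, and the Eno2 libraries overlapped in PRC1CPM, where its log2 change was -0.84, and -0.55 without the first untreated library. Glod5, of the glyoxalase family, had 92.4, 24.6 and 37.2 untreated and 11.8, 3.7 and 12.2 after OHT in PRC1CKO, and 129, 96.1 and 117 untreated and 66.6, 26.3 and 36.1 after OHT in PRC1CPM. Ndufa4l2, a mitochondrial gene induced by hypoxia, had 587, 60.03 and 296 untreated and 121, 27.8 and 54.1 after OHT in PRC1CKO, and 757, 227 and 496 untreated and 428, 107 and 166 after OHT in PRC1CPM, and its libraries overlapped in both lines where the second untreated library was the lowest of its condition and the first OHT-treated one the highest.

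Ifitm1 (chr7:140967429-140969827), an interferon-induced membrane protein also known from early germ cells, was the fourth most abundant member per length at 516 per kb. It had 1256, 759 and 809 untreated and 459, 288 and 237 after OHT in PRC1CKO, and 1684, 1388 and 1529 untreated and 664, 491 and 508 after OHT in PRC1CPM, with 34.5% and 36% left. The 10 genes of neurons and vesicle release ran from -2.88 to -0.84 in PRC1CKO and from -1.73 to -0.82 in PRC1CPM, and 9 of them fell more in PRC1CKO. The 8 germ line genes ran from -2.0 to -0.81 and from -1.74 to -0.87, and 4 fell more in each line. Meiob, a single-strand DNA binding protein of meiosis, had 212, 75.4 and 135 untreated and 73.2, 55.5 and 61.1 after OHT in PRC1CKO, and 463, 226 and 412 untreated and 272, 118 and 161 after OHT in PRC1CPM, where the lowest untreated library overlapped the OHT-treated ones. The 23 others ran from -2.51 to -0.88 in PRC1CKO and from -1.88 to -0.83 in PRC1CPM and include Snrpn, an imprinted gene, with -1.08 and -0.84.

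At the edge of the rule, the members nearest to the bound by the larger of their changes were Lifr at -0.81 in PRC1CPM, Patl2 at -0.81 in PRC1CKO and Car14 at -0.82 in PRC1CPM. The genes just outside were Cpsf4l, with -1.32 in PRC1CKO and -0.79 in PRC1CPM, Cort, with -0.79 and -0.83, and Plag1, with -0.93 and -0.79. Without the second OHT-treated PRC1CPM library the change in PRC1CPM of Cpsf4l was -0.48, and that of Cort was -0.53 without the first untreated and -0.55 without the second OHT-treated PRC1CPM library. The bound falls in a continuous range of changes.

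The lines were next compared with each other, before and after OHT, since the rule set no relation between them. In untreated cells the members were higher in PRC1CPM than in PRC1CKO by a median of 0.45 on the log2 scale, beside 0.12 over all tested transcripts, and 95 of 116 lay above 0, where 67.1% of the genes with both untreated means at or above 50 did. The limma fit called 10 members higher in PRC1CPM and 2 lower, where it called 2.21% and 0.478% of all transcripts. With the replicate number as a block, 42 members were called higher and 2 lower, beside 9.63% and 1.49% of all transcripts. After OHT the median member difference was 0.61, beside 0.10, and 108 of 116 lay above 0, where 64.0% did. The fit called 24 higher and 1 lower in PRC1CPM, beside 1.25% and 0.218%, and with the block 55 and 2, beside 6.68% and 1.37%. Each line is a single clone, so a difference between lines cannot be told apart from one between clones.

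The scale of the libraries moved these medians. Without the first untreated PRC1CPM library the untreated median of the members was 0.33 beside -0.00073 over all transcripts. Without the first untreated PRC1CKO library it was 0.61 beside 0.30. After OHT it was 0.44 beside -0.05 without the first OHT-treated PRC1CPM library, and 0.75 beside 0.25 without the second. With TMM scaling, which assumes that most genes do not change, the untreated median difference of the members was 0.33 beside 0.0061 over all transcripts, and that after OHT 0.51 beside -0.0047. Without the gDNA-seq correction of the spike-in it was 0.17 beside -0.16 untreated and 0.78 beside 0.27 after OHT. In untreated cells the members called higher and lower in PRC1CPM then numbered 22 and 2 with TMM scaling, beside 4.40% and 1.80% of all transcripts, and 3 and 2 without that correction, beside 0.767% and 0.874%. After OHT they numbered 32 and 1 with TMM scaling, beside 3.09% and 1.54%. Without the correction 33 were called higher after OHT, beside 2.60% of all transcripts, and the lower call of 1700019D03Rik was lost. Over all transcripts, 82.2% of the calls between the untreated lines and 85.1% of those between the OHT-treated lines were higher in PRC1CPM. These shares were 71.0% and 66.8% with TMM scaling and 46.8% and 95.5% without the gDNA-seq correction.

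Of the members called in untreated cells, Slc5a4b had the largest difference, 2.25 ± 0.35 (SE) on the log2 scale (adjusted p = 3.22e-05), followed by Abcc2, an exporter of bile pigment conjugates, with 1.63 ± 0.42 (adjusted p = 0.0195). Pmel, the pigment granule protein, had 1.51 ± 0.30 (adjusted p = 0.00131), and Meiob 1.43 ± 0.34 (adjusted p = 0.0106). For Pmel the untreated counts were 219, 139 and 188 in PRC1CKO and 730.1, 388 and 474 in PRC1CPM, with no overlap between the lines. Trh, at 1.28 ± 0.21 (adjusted p = 7.44e-05), had the smallest p of those that were not Slc5a4b.

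Rragb, a GTPase of amino acid sensing, Sgol2b, a shugoshin gene with a close relative in the genome, and the stress response genes Adm2, Herpud1 and Slc1a4 were the other 5 called higher. Cubn at -1.62 ± 0.39 (adjusted p = 0.0107) and 1700019D03Rik at -0.78 ± 0.22 (adjusted p = 0.0393) were the 2 called lower. The Cubn call was lost without the first untreated PRC1CKO library, where the difference was -1.07, and the difference was -2.42 without the third. Without 1 library at a time, Slc5a4b, Trh, Pmel and Rragb were called each time, and the other 8 calls were lost without at least 1 library, Abcc2 and Meiob without the second untreated PRC1CKO or the third untreated PRC1CPM library, and Sgol2b and Herpud1 without either of these, the third untreated PRC1CKO or the first untreated PRC1CPM library. Adm2 and Slc1a4 were called in 9 of 20 alternatives each. Without the gDNA-seq correction the calls of Rragb, Sgol2b, Abcc2, Meiob, Adm2, Herpud1 and Slc1a4 were also lost, and with no filter on low reads, where more transcripts were tested, those of Cubn, Sgol2b, Abcc2, Meiob, Adm2, Herpud1 and Slc1a4. All 12 stress response genes had a positive difference in untreated cells, with a median of 0.69. With the block 8 of the 12 were called higher, beside 42 of the 116 members and 9.63% of all transcripts, Chac1 (adjusted p = 3.15e-06), Nupr1 (0.000221), Ddit3 (0.0012) and Trib3 (7.07e-06) among them, whose adjusted p without the block was 0.0696, 0.0731, 0.249 and 0.0539.

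After OHT, Foxr2 had the largest difference, 2.15 ± 0.44 (SE) on the log2 scale (adjusted p = 0.00266), and Glod5 the next, 2.14 ± 0.47 (adjusted p = 0.00518). Both are X-linked and were called in OHT-treated cells but not in untreated cells, where the differences were 0.83 ± 0.44 and 1.34 ± 0.47, and whether these differ from those after OHT was not tested. Ndufa4l2 had 1.77 ± 0.48 (adjusted p = 0.0379) and Txlnb, a muscle gene of the taxilin family, 1.67 ± 0.29 (adjusted p = 0.000208). 1700019D03Rik was lower in PRC1CPM, at -0.90 ± 0.22 (adjusted p = 0.0179), and its counts were 2011, 2089 and 1938 untreated and 842, 922 and 1112 after OHT in PRC1CKO against 1285, 1103 and 1143 untreated and 598, 473 and 471 after OHT in PRC1CPM. It was the only member called lower both untreated and after OHT, although the untreated call was lost without any 1 of 9 libraries and that after OHT without the second or the third OHT-treated PRC1CKO or the third OHT-treated PRC1CPM library or without the gDNA-seq correction. Called higher in both were 6 members: Trh, Pmel, Rragb, Sgol2b, Meiob and Abcc2. The calls of Sgol2b, Meiob and Abcc2 after OHT were lost with no filter on low reads. They were also lost without the second OHT-treated PRC1CKO or the first OHT-treated PRC1CPM library. Those of Sgol2b and Abcc2 were lost without the third OHT-treated PRC1CPM library too, and that of Abcc2 with a pseudocount of 0.1.

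Lefty1 at 1.29 ± 0.22 (adjusted p = 0.000127), Phc1 at 1.00 ± 0.21 (adjusted p = 0.00457), Actn3 at 1.21 ± 0.28 (adjusted p = 0.00878), Napsa at 1.47 ± 0.37 (adjusted p = 0.0212) and Chac1 at 1.16 ± 0.30 (adjusted p = 0.0273) were also called higher in PRC1CPM after OHT. Of the 25 calls 8 held without any 1 library, those of Foxr2, Txlnb, Lefty1, Trh, Pmel, Rragb, Slc28a1 and Sept1. With no filter on low reads the calls of Foxr2, Slc28a1, Sept1, Glod5, Ndufa4l2, Actn3, Napsa, Chac1 and Phc1 were among those lost, and 5 of the 25, those of Txlnb, Lefty1, Trh, Pmel and Rragb, held in each alternative run. The calls of Glod5, Ndufa4l2, Actn3, Napsa, Chac1 and Phc1 were each lost without at least 1. That of Phc1 was lost without the third OHT-treated PRC1CPM library, those of Glod5, Actn3 and Ndufa4l2 without the second OHT-treated PRC1CKO or the first OHT-treated PRC1CPM library, and that of Ndufa4l2 also without the third untreated PRC1CKO library. That of Napsa was lost without the third OHT-treated PRC1CKO or the first or second OHT-treated PRC1CPM library, and that of Chac1 without the first or second OHT-treated PRC1CKO or the second or the third OHT-treated PRC1CPM library. Chac1 was also not called with TMM scaling, edgeR or DESeq2, and Ndufa4l2 not with TMM scaling or DESeq2. The 5 genes of cytokine signalling were not called in either comparison without the block, and with it Gadd45g and Pim2 were called higher in PRC1CPM untreated and Pim2 after OHT. Lifr differed by -0.18 ± 0.21 untreated and 0.09 ± 0.21 after OHT (SE), and Il6st by 0.03 ± 0.20 and 0.07 ± 0.20.

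**Figure D5:**
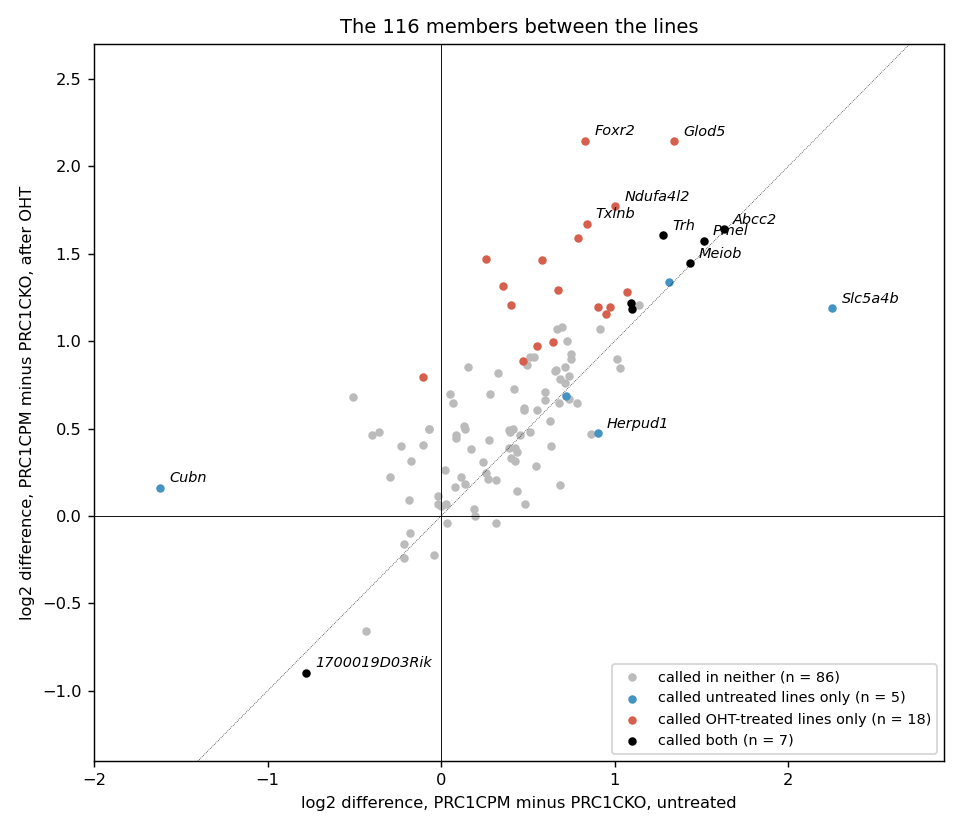
Log2 difference of PRC1CPM minus PRC1CKO in untreated cells (x axis) and after OHT (y axis) for the 116 members, 1 point per gene, coloured by the comparison in which the limma fit called them. The dotted line marks equal differences, and 108 points lie above 0 on the y axis and 95 to the right of 0 on the x axis.

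The gene lists of known pathways place the members among their pathways. The list of serine, one-carbon and amino acid response genes had 34 tested members, of which limma called 9 lower in PRC1CKO and 13 in PRC1CPM, beside 3.09% and 1.40% of all transcripts, and 12 and 15 with the replicate block, beside 4.86% and 2.72%, with median log2 changes of -0.43 and -0.56 beside 0.12 and 0.10 over all transcripts. None of the 34 was higher at an unadjusted p under 0.05 in either line, and edgeR and DESeq2 also called 0 higher. Of these 34, 5 are among the 116, and of the other 29, 4 were called lower in PRC1CKO and 8 in PRC1CPM. Psat1, Psph and Mthfd2, enzymes of serine synthesis and of the mitochondrial folate cycle, were called in both lines. Psat1 changed by -0.75 ± 0.21 (SE) in PRC1CKO (adjusted p = 0.00489) and -0.79 ± 0.21 in PRC1CPM (adjusted p = 0.00391), Psph by -0.77 ± 0.25 and -0.86 ± 0.25, and Mthfd2 by -0.78 ± 0.22 and -0.81 ± 0.22. The 3 calls in PRC1CPM were lost without the gDNA-seq correction. In PRC1CKO those of Psph and Mthfd2 were lost without the second OHT-treated library and that of Psph also without the first or the third untreated one, and in PRC1CPM that of Psph was lost without the second OHT-treated library. Atf4 itself, named outside the rule, gave -0.44 (adjusted p = 0.159) and -0.56 (adjusted p = 0.0671), and was not called. With the block its limma adjusted p was 0.00360 and 0.000154, and it was not called since both changes lay under the fold threshold of 1.5.

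The list of pluripotency factors and ESC genes had 40 tested members, with 12 called lower and 4 higher in PRC1CKO and 7 lower and 4 higher in PRC1CPM, and medians of -0.32 and -0.17. Its members among the 116 are Lefty1, Pecam1, Mycn and Otx2, which were chosen for their fall, and of the other 36 genes 8 were called lower in PRC1CKO and 3 in PRC1CPM, beside 3.09% and 1.40% of all transcripts. Tet2, which oxidises methylated DNA, was called lower in both lines, at -1.08 ± 0.24 and -0.77 ± 0.24, while Etv4 (0.76 ± 0.26 and 1.36 ± 0.26) and Dppa2 (0.80 ± 0.26 and 0.80 ± 0.26) were called higher in both. In PRC1CPM the call of Tet2 was lost with DESeq2, without the gDNA-seq correction and without the first or the third untreated or the second OHT-treated library, the last of which moved its change to -0.49. That of Dppa2 there was lost without the second untreated or the first or the third OHT-treated library, the last of which moved it to 0.49. In PRC1CKO the call of Dppa2 was lost without the gDNA-seq correction and without the third untreated or the first or the third OHT-treated library, and that of Etv4 with DESeq2, without that correction and without any 1 library of the line other than the first untreated one. Pou5f1, with -0.56 and -0.25, and Nanog, with -0.22 and 0.37, the central pluripotency factors and also named outside the rule, were not called in either line, with or without the block. With the block the limma adjusted p of Pou5f1 was 8.64e-05 in PRC1CKO and 0.134 in PRC1CPM. That of Nanog was 0.191 and 0.0170. All 4 changes lay under the fold threshold of 1.5. The LIF, JAK and STAT3 list had 19 tested, with 4 lower and 2 higher in each line, and Jak1 was called higher in both, at 0.74 ± 0.22 and 0.66 ± 0.22. Its call was lost in PRC1CKO without the gDNA-seq correction and without the second or the third untreated or the first OHT-treated library, and in PRC1CPM with TMM scaling and without the second or the third untreated or the first or the third OHT-treated library. DESeq2 called 1 gene of this list higher in PRC1CKO. Of its 4 lower calls in PRC1CPM all 4 are members, and of those in PRC1CKO 1 gene is not. Its medians were -0.23 and 0.06. With the block 5 of its genes were called lower and 4 higher in PRC1CKO, and 4 lower and 3 higher in PRC1CPM.

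The list of glycolysis and hypoxia targets had 35 tested, with 11 called lower in PRC1CKO, 9 of them among the 33 genes that are not members, and 2, the members Pfkp and Eno2, in PRC1CPM, beside 3.09% and 1.40% of all transcripts. The medians were -0.61 and -0.23. With the block 19 and 3 were called lower, beside 4.86% and 2.72%, and in PRC1CKO edgeR called 16 and DESeq2 6. P4ha2, a collagen-modifying enzyme, was called higher in both lines, at 1.70 ± 0.24 and 1.52 ± 0.24. Whether the fall differs between the lines was not tested for the list. In the actin and muscle list 4 of 35 were called lower in PRC1CKO and 5 in PRC1CPM, of which 2 and 3 are not members, with medians of 0.03 and 0.00, and Actc1, cardiac actin, at -3.33 ± 0.56 and -1.58 ± 0.56, and Myl3 at -1.60 ± 0.56 and -1.62 ± 0.56 were called in both beside Actn3 and Acta1. The call of Myl3 in PRC1CKO was lost with edgeR and DESeq2 and without the first or second untreated or the first or the third OHT-treated library, and its change was -0.99 without the first OHT-treated one. In PRC1CPM the call of Myl3 was lost with TMM scaling, without the gDNA-seq correction and without the second or the third untreated or the first or the third OHT-treated library. That of Actc1 was lost without that correction, without the third untreated PRC1CKO library and without any 1 PRC1CPM library other than the third untreated one. Fhl2 was called higher in both, in PRC1CPM not without the third untreated or the first OHT-treated library.

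Other lists hold at most 1 member. In the cholesterol and fatty acid list 4 of 33 were called lower in PRC1CKO and 2 in PRC1CPM, beside 3.09% and 1.40% of all transcripts. With the block 5 and 3 were called lower, beside 4.86% and 2.72%. Msmo1 (-0.93 ± 0.26 and -0.77 ± 0.26), an enzyme of sterol synthesis, was called lower in both lines. In PRC1CPM DESeq2 called 0 of the 33 lower, where 7 were lower by limma at an unadjusted p under 0.05. The call of Msmo1 there was also lost without the gDNA-seq correction and without the first or the third untreated or the second OHT-treated PRC1CPM library, with changes of -0.48, -0.66 and -0.44, and its change was -1.17 without the second untreated one. In the lists of ribosome biogenesis and MYC targets (30 tested), the respiratory chain (25) and heat shock (23) limma, edgeR and DESeq2 called 0 in either direction in both lines. At an unadjusted p under 0.05, 1 gene of the first was lower and 1 of the third higher in PRC1CKO, and 1 of the second higher in each line, where with the block 1 gene of the second was called higher in each line. Of the PRC1 and PRC2 subunits 9 of 37 were called higher in each line, Cbx8 and Bmi1 among them, and Phc1 was the only one called lower in both. The PRC1CKO and PRC1CPM fits called 16.5% and 13.1% of all transcripts higher.

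Of the remaining lists, those of nuclear receptors (8 of 28 higher in PRC1CKO and 10 in PRC1CPM), epithelial genes (13 and 7 of 30), germline genes (8 and 8 of 13) and WNT, BMP and Nodal targets (9 and 8 of 26) held more calls above than below in both lines, as did all transcripts, where 84.2% of the calls in PRC1CKO and 90.4% of those in PRC1CPM were higher after OHT. Those shares were 71.5% and 80.1% with TMM scaling and 76.2% and 98.1% without the gDNA-seq correction. Their median log2 changes in PRC1CKO and PRC1CPM were 0.48 and 0.36, 0.66 and 0.34, 1.36 and 0.86, and 0.56 and 0.48. Genes called higher in both lines include Nr2f2, Nr2f1 and Rxrg of the first, Gjb2 and Pkp1 of the second, Tex101, Slc25a31 and Sycp1 of the third and Cdx1, Lgr5 and T of the fourth. Lefty1 is also on the last of these lists. The counts of the other lists stand beside 3.09% and 1.40% of all transcripts called lower in PRC1CKO and PRC1CPM, and 16.5% and 13.1% called higher. Of these, the MAP kinase list had 4 of 28 lower and 6 higher in PRC1CKO and 2 higher in PRC1CPM, and the p53 list 3 and 4 of 24 higher. The lysosome list (29 tested) had 1 lower in each line and 4 and 2 higher, the redox list (26) 3 and 1 lower and 1 higher in each, and the cell cycle list (40) 1 lower in PRC1CKO and 1 higher in each. With the block the MAP kinase list had 10 and 7 called higher in PRC1CKO and PRC1CPM and the p53 list 7 in each, beside 20.3% and 17.9% of all transcripts. The nuclear receptor list then had 11 and 11 called higher, the epithelial list 16 and 9, and the WNT, BMP and Nodal list 13 and 12. The p53 list had Pmaip1 and Perp called higher in both lines, the lysosome list Ctsh and Ctsc higher beside Napsa, the redox list Gsta4 lower and Gpx3 higher, the cell cycle list Ccnd2 higher and the MAP kinase list Btg2 higher. Of the 77 calls after OHT of genes outside the 116 that the naming rule took, 44 held without any 1 library, 36 were lost with no filter on low reads, 14 without the gDNA-seq correction, and 34 held in each alternative run. Both calls held without any 1 library for P4ha2, Psat1, Nr2f2, Nr2f1, Rxrg, Tex101, Slc25a31, Sycp1, Cdx1, Ctsh, Ctsc, Ccnd2, Cbx8 and Bmi1, although the change of Nr2f2 in PRC1CPM was 4.12, and 2.66 without the third untreated PRC1CPM library. Those of Gjb2, Pkp1, Lgr5, T, Pmaip1, Perp, Gsta4, Gpx3 and Btg2 were lost in at least 1 line without at least 1 library. In PRC1CKO Perp was called in 10 of 21 alternatives, and not with TMM scaling, edgeR or DESeq2 or without the gDNA-seq correction. In PRC1CPM its call was lost with DESeq2. That of T was lost with DESeq2 in both lines, and that of Gsta4 in PRC1CPM with DESeq2 and without the gDNA-seq correction. The change of Gsta4 in PRC1CPM was -0.65, and -0.41 without the second OHT-treated library, and that of Perp in PRC1CKO was 0.83, and 1.27 without the first untreated one.

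Markers of ESCs were high in all libraries. Of 10 ESC markers 9 were in the table, led per length by Tdgf1, and in PRC1CKO their summed level per kb was 13846, 8248 and 9587 in the untreated and 6879, 6521 and 7396 in the OHT-treated libraries. In PRC1CPM it was 11075, 7671 and 10402 untreated and 9539, 5382 and 9141 after OHT. The sum was thus lower after OHT in each same-numbered pair, and Sox2 (adjusted p = 0.000510) and Utf1 (adjusted p = 0.00643) were called lower in PRC1CKO by limma. In PRC1CPM limma called 0 of the 9 in either direction, and Nanog changed by 0.37 there (adjusted p = 0.286).

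Markers of other cell types were lower. The 8 primitive endoderm markers, led by Lama1, summed to 110, 61.7 and 50.2 per kb in untreated and 181, 136 and 130.3 in OHT-treated PRC1CKO cells. They summed to 59.4, 48.9 and 56.1 in untreated and 114, 69.6 and 99.6 in OHT-treated PRC1CPM cells, and limma called 5 higher in PRC1CKO and 7 in PRC1CPM. The 7 trophoblast markers in the table, of 9 and led by Tfap2c, summed to means of 194 ± 30.4 (SD, n = 3) and 202 ± 35.7 in PRC1CKO and 142 ± 14.4 and 239 ± 59.1 in PRC1CPM, with 4 called higher in each line and Tfap2c called lower in PRC1CKO (limma, adjusted p = 0.0255). The 8 fibroblast markers, led by Fn1, which ESCs also express, summed to means of 1316 ± 214 and 1268 ± 81.3, and 1296 ± 341 and 1182 ± 357. Their levels were uneven, with Fn1 at 877, Vim at 223 and Thy1 at 161 per kb. S100a4 stood at 2.34, Twist2 at 1.45, Postn at 0.495, Dcn at 0.0938 and Lum at 0.0925 per kb. Of this list Thy1 and Twist2 were called higher and Postn and Vim lower in PRC1CKO, and Twist2 higher in PRC1CPM. The 6 primed epiblast markers, among them the member Otx2, summed to means of 414 ± 107 and 487 ± 28.1, and 421 ± 12.4 and 442 ± 37.8, and beside Otx2, lower in both lines, Dnmt3b was called higher in PRC1CKO. In bulk RNA, fewer cells of a type and less RNA per cell cannot be told apart, and the part of these shifts in the fall of the members was not tested.

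Further features are given as medians, with no test, and of these the untreated level was bounded from below by the rule. The windows around the start of the members held a median of 9 CpG dinucleotides (quartiles 5 and 18, n = 74) where the 8302 windows had 22 (15 and 30), and 56.7% G and C beside 62.0%. Binding of PRC1 was not analysed here. Their untreated level per length was 18.2 normalised reads per kb beside 33.6, and ran from 0.279 for Slc35f4 to 2550.2 for Trh. Gene bodies had a median of 23.5 kb beside 24.8, and 9 exons beside 10.

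The members lay on 19 of the 20 chromosomes that could hold them, with none of 385 genes on chromosome 16. Of 386 genes on the X chromosome 8 were members (2.07%), Foxr2, Glod5, 4930519F16Rik, Rragb, Mtap7d3, Armcx1, Usp11 and Pim2. The next shares were 11 of 588 on chromosome 10 (1.87%), 11 of 668 on chromosome 8 (1.65%) and 15 of 948 on chromosome 7 (1.58%). All chromosomes together held 116 of 11960, and the shares were not tested. The members that lie within 200 kb of each other were few. Kctd19 and Lrrc36 lie 0.119 kb apart, Foxr2 and Rragb 7.10 kb, Trib3 and 6820408C15Rik 71.5 kb, Pim2 and Glod5 121 kb, and Mef2b and Gdf1 148 kb.

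Some gene bodies overlap a neighbour on the other strand, and reads of the pair may not be told apart where the counting did not use strand, which is not given in the sources used here. Of the 116, 13 overlap another gene of the table and 5 over at least 10% of their length. Gng3 shares 76.8% of its body with Bscl2, whose changes were 0.02 and 0.00, and Ggnbp1 48.1% with Bak1, with 0.34 and 0.22. Slc23a1 shares 20.5% with Paip2, Scn9a 43.5% with Gm13629 and Patl2 27.7% with Trim69, and of these 3 partners only Gm13629, at 2.02 and 3.59 normalised reads untreated in PRC1CKO and PRC1CPM, had log2 changes below 0 in both lines, -0.84 and -0.68.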

How the data were processed

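RNA was measured as cRNA-seq in 12 libraries, 3 per condition, with a further 12 libraries of genomic DNA (gDNA-seq) that gave the ratio of spike-in to mouse cells. The authors mixed Drosophila SG4 cells into each sample, removed ribosomal RNA, made directional libraries and deposited 1 table of normalised read counts for 20633 RefSeq transcripts on mm10. That deposited signal is the read count over a gene body divided by a spike-in size factor corrected by gDNA-seq, and multiples of 1 read could be recovered (tolerance 0.02), giving 14668159 to 27016156 reads per library. The authors discarded ribosomal DNA reads found with Bowtie 2, aligned the rest to mm10 joined to dm6 with STAR, and aligned what STAR left with Bowtie 2 in local mode. Whether counting used strand is not given in the sources used here. The deposited table also holds DESeq2 fold changes and adjusted p-values, and a second file lists partially derepressed genes. Neither was used.

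The 16940 transcripts that reached 10 reads in 3 or more libraries were fitted as log2(normalised read count + 1), with fold changes on that scale, by limma 3.58.1 with a mean-variance trend over all 12 libraries in R 4.3.3. A gene was called at an adjusted p (Benjamini-Hochberg over all tested) under 0.05 and a fold above 1.5, the thresholds of the study. Normalised values were not counts, so edgeR 4.0.16 and DESeq2 1.42.0 were run on recovered reads as alternatives, beside TMM scaling, no gDNA-seq correction, other pseudocounts (0.1 and 5), no filter, other bounds, a replicate block and leaving out each library.

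The members and the gene lists were chosen with earlier results of these data known. Genes were named by a rule: the 15 largest mean falls, members on the 19 gene lists, the 5 highest per kb, the 3 on each side of the bound, the 4 largest line differences called each way, the 3 largest differences between the changes each way, up to 3 non-members per list called in both lines, and Ring1 and Rnf2. A few genes that this rule or the lists hold are not reported here. Replicate numbers come from the labels, which do not say what they share. Deviations from the condition mean correlated at 0.0988 to 0.438 over the 18 same-numbered pairs (mean 0.205) and at a mean of -0.102 over the 36 others. Within a condition the deviations cancel for each transcript, so the mean over the 36 others largely follows from that over the 18. The 0.0988 was between the second untreated and second OHT-treated PRC1CKO libraries. In both comparisons between the lines, and between untreated and OHT-treated PRC1CPM cells, all 3 pairs exceeded 0.1. Blocked values therefore stand beside many, but not all, of the results that the block changed. The replicates are labelled as biological, and no libraries were identical.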

Additional observations from a re-analysis of the deposited data

How the results depend on the processing

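No called result changed direction under the alternatives run. Of values not called, the difference of Cubn between the OHT-treated lines, 0.16, ran from -0.22 to 0.52 without 1 library, and the change of Rnf2 in PRC1CKO, 0.03, from -0.04 to 0.13 and to -0.09 with TMM scaling and -0.13 without the gDNA-seq correction. Without that correction the changes of Ring1 and Rnf2 in PRC1CPM went from -0.20 and -0.17 to 0.09 and 0.12, and the median difference of all transcripts between the untreated lines from 0.12 to -0.16. With TMM scaling all 116 members stayed and 164 genes met the rule, and without the gDNA-seq correction, which moved the median of all transcripts in PRC1CPM to 0.39, 59 genes met it, 58 of them members. With a bound of -1, 68 genes met it, and leaving out 1 library at a time 81 to 162 did. The genes called lower after OHT in PRC1CKO, PRC1CPM and both numbered 524, 237 and 183. They numbered 1133, 595 and 446 with TMM scaling, 346, 144 and 109 with no filter on low reads (more transcripts tested), and 823, 461 and 340 with the replicate block. Without the gDNA-seq correction there were 666 in PRC1CKO, 68 in PRC1CPM and 63 in both. Without 1 library they ranged over 326 to 674, 123 to 339 and 103 to 235, with the fewest without the first untreated PRC1CKO library for PRC1CKO and without the second OHT-treated PRC1CPM library for PRC1CPM and for both.

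Of members, 12 differed between the untreated lines, beside 2.69% of all transcripts, whose share under the same setting follows each count in brackets. There were 24 with TMM scaling (6.20%), 5 without the gDNA-seq correction (1.64%), 5 with no filter (0.640%), 44 with the replicate block (11.1%), and 5 to 34 without 1 library, with 34 without the first untreated PRC1CKO library (9.27%), 20 without the second untreated PRC1CPM library (4.17%), 7 without the third untreated PRC1CKO (1.44%) or the first untreated PRC1CPM library (1.78%) and 5 without the second untreated PRC1CKO (1.61%) or the third untreated PRC1CPM library (1.74%). Between the OHT-treated lines 25 differed (1.47%), with 7 with no filter (0.354%), 57 with the block (8.05%), and 10 to 31 without 1 library, with 10 without the second OHT-treated PRC1CKO library (0.685%) and 12 and 14 without the first (0.744%) and the third (0.903%) OHT-treated PRC1CPM libraries. The causes were not tested. The run with no filter on low reads was left out of the totals that follow. Of 3320 values of the change after OHT of single named genes, 3165 kept their call or stayed within 1 SD of the replicates. Another 139 fell short of the threshold and 16 moved by more than 1 SD. Of 380 values of a difference between the lines, 328 kept their call, 34 fell short and 18 passed. With no filter, 36 of the 77 calls after OHT of named genes that are not members were lost. Whole libraries were shifted by up to 0.36 within a condition, and no limit of detection was computed.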
